A study of Sus scrofa with 9 samples.

Results

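The microRNA precursor rows of an RNA sequencing table from developing miniature pig teeth are described here. They are the 185 of 34580 rows whose symbol is MIR with a number, letters or a copy number where present, or MIRLET, without the host genes of microRNAs. Total RNA came from germs of a mandibular deciduous molar (Dm3) of miniature pig embryos, taken on embryonic day 40, 50 or 60. The 3 libraries of E40 represent the cap stage, those of E50 the early bell and those of E60 the late bell stage, with 3 libraries each. The labels name no genotype or treatment of the embryos, and the groups differ by age. The labels do not say which embryos or sows a library came from, so that every p-value below measures the spread between these libraries. Each value is an FPKM, that is, reads scaled by the length of the row and by the mapped fragments of the library.

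A microRNA is made from a long primary transcript, in which the microRNA lies within a hairpin. DROSHA and its partner DGCR8 cut the hairpin out in the nucleus, XPO5 carries this precursor to the cytoplasm, and DICER1 trims it to the mature microRNA that an Argonaute protein uses to repress messenger RNAs. Several hairpins often share a primary transcript, such as the 17-92 cluster known from proliferating progenitor cells, and many others lie inside the introns of protein-coding hosts. Mice without Dicer1 in the dental epithelium have malformed teeth, and miR-200 and miR-203 family members, miR-205, miR-214 and miR-199a are among the microRNAs known from epithelium or mesenchyme of developing organs.

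The rows cover the hairpins and not the mature microRNAs. The study sequenced RNA without rRNA, with reads longer than these rows. Reads on a row may therefore come from primary or host transcripts that span the hairpin, which was not tested. The 140 rows above 0 in any library had lengths of 65 to 110 bases with a median of 80, as given by RefSeq for the Sscrofa11.1 assembly, and with those lengths every FPKM was a whole number of reads within 0.001. The libraries fell into sets of unequal depth that the labels do not mention. The 3 E50 libraries and E60 library 1 held 14376672 to 16692361 mapped fragments and are called deep here, whereas the 3 E40 libraries and E60 libraries 2 and 3 held 938999 to 1761189 and are called shallow. A single read of an 80-base row was worth 7.1 to 13.3 FPKM in the shallow libraries and 0.749 to 0.869 FPKM in the deep ones. All E40 libraries were shallow and all E50 libraries deep, so that a difference between E40 and E50 cannot be told apart from one between the library sets. E60 had libraries in both sets. Tooth germ identity was checked on 10 marker genes, all of which were above 0. Their summed level was 222 to 294 FPKM at E40, 384 to 442 at E50 and 3740 to 19100 at E60.

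Precursor rows were sparse in every library. Of the 185 rows, 45 were at 0 in all 9 libraries, which over 68333728 fragments allows a level of up to 0.549 FPKM for an 80-base row. At least 1 read was present for 34, 36 and 40 rows at E40, for 107, 91 and 96 at E50, and for 101, 33 and 33 in E60 libraries 1, 2 and 3. More than 3 reads, the limit that counting error alone sets on a row at 0, were present for 4 to 6 rows at E40, 47 to 53 at E50, 54 in E60 library 1 and 5 and 9 in E60 libraries 2 and 3. Each deep library thus had more detected rows than any shallow library, within E60 as well. Of the 140 rows above 0, 72 had reads only in deep libraries, 10 only in shallow ones and 58 in both. Only 8 of the 72 would have had more than 3 shallow reads at their deep rate, so that the absence of the other 64 was not detectable at this depth.

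**Figure D1:**
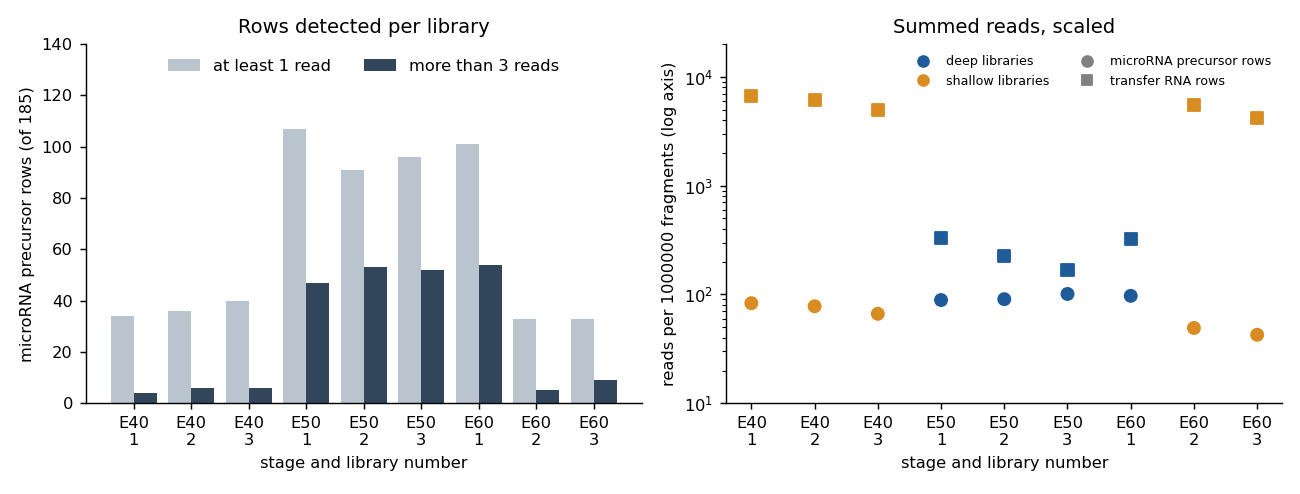
Left, the number of microRNA precursor rows with at least 1 read and with more than 3 reads in each library. Right, the summed reads of all precursor rows (circles) and of 66 transfer RNA rows (squares), as reads per 1000000 mapped fragments on a log axis. Precursor rows stay within 42.6 to 101 in all 9 libraries, while transfer RNA rows are at 4150 to 6680 in shallow libraries and 168 to 329 in deep ones.

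Together the rows took 83.1, 77.9 and 66.4 reads per 1000000 mapped fragments at E40, 88.8, 90.5 and 101 at E50, and 97.1, 49.2 and 42.6 in E60 libraries 1, 2 and 3. The shallow libraries were lower, and the ranges of the sets did not overlap. Pooled over libraries, the shallow rate was 0.642 of the deep rate (exact 95% interval 0.578 to 0.712). The shallow libraries were not alike, since E40 was at 0.802 of E50 (0.703 to 0.911) and E60 libraries 2 and 3 at 0.608 of E40 (0.492 to 0.75). The intervals on pooled reads given here and below cover counting error only. Within E60, where the stage is the same, libraries 2 and 3 were at 0.469 of library 1 (0.392 to 0.557). Other short rows went the opposite way. The 66 transfer RNA rows, also short, took 4150 to 6680 reads on the same scale in shallow libraries and 168 to 329 in deep ones, and the remaining rows of up to 120 bases took 211 to 290 and 14.5 to 18.3. The part of library preparation in these differences was not tested.

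The reads were concentrated in few hairpins. The 10 rows with most reads at E50 were MIR214, MIR19A, MIR186, MIRLET7C, MIR27B, MIR374A, MIR199A-1, MIR18A, MIR7 and MIR21 (level with MIR125B-1 at 134 reads), which held 54.8% of the 4267 precursor reads of that stage. In libraries that this ranking did not use, they held 53.7% of 1567 reads in E60 library 1 but 30.8% of 143 reads in E60 libraries 2 and 3 and 24.6% of 248 reads at E40. Their share was thus alike in E60 library 1 and at E50, and smaller in the shallow libraries of either stage. In bulk tissue, fewer cells of a type and less RNA per cell cannot be told apart.

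The 17-92 cluster took 671 of the 4267 precursor reads at E50, second to the 757 of MIR214 with MIR199A-1, and was far lower per fragment in the shallow libraries. Its 6 hairpins follow each other as MIR17, MIR18A, MIR19A, MIR20 (the table's name for MIR20A), MIR19B-1 and MIR92A-1 in RefSeq, and their microRNAs are known to restrain apoptosis and cell cycle inhibitors. Summed over the cluster, 184, 229 and 258 reads were counted at E50 and 220 in E60 library 1, against 5, 2 and 2 at E40 and 0 and 7 in E60 libraries 2 and 3. The deep and shallow libraries did not overlap. The 9 reads at E40 compare with 48.6 at the E50 rate, a ratio of 0.185 (0.0842 to 0.353), and the 7 reads of E60 libraries 2 and 3 with 42.8 at the rate of E60 library 1, a ratio of 0.163 (0.0649 to 0.342). Between the deep libraries the cluster sum did not change beyond counting error, since E60 library 1 was at 0.929 of E50 (0.794 to 1.08). In that comparison MIR19A was lower, at 0.803 (0.644 to 0.995), and the other 5 hairpins together were at 1.1 (0.876 to 1.38).

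MIR19A, a hairpin linked to cell survival, held 388 of the 671 cluster reads at E50 and 0 of the 9 at E40. It had 99, 134 and 155 reads at E50 (82.3, 97.9 and 131 FPKM) and 110 in E60 library 1 (83.1 FPKM), but 0, 0 and 0 at E40 and 0 and 1 in E60 libraries 2 and 3. Its level at E50 was 104 ± 25.1 FPKM (SD, n = 3), and 28.1 reads would have been seen at E40 at the E50 rate. With E40 set at a floor of 3 pooled reads it was 9.38-fold lower, without the counting error of E50. The exact interval of E40 over E50 was 0 to 0.132. The other 5 hairpins, without MIR19A, summed to 9 reads at E40 where 20.5 were expected (ratio 0.439, 0.199 to 0.845) and to 6 in E60 libraries 2 and 3 where 21.4 were expected (ratio 0.28, 0.101 to 0.63).

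MIR18A overlapped between the sets. It had 34.7, 10.3 and 16.4 FPKM at E40 (3, 1 and 2 reads), 34.1, 31.3 and 37 at E50 (46, 48 and 49 reads), and 33.7, 0 and 24.7 at E60 (50, 0 and 4 reads). The pooled E40 rate was 0.579 of E50 (0.209 to 1.29), and the rate of E60 libraries 2 and 3 was 0.411 of library 1 (0.108 to 1.12). MIR92A-1 also overlapped between E40 (26.6, 11.9 and 0 FPKM) and E50 (17, 26.2 and 27.8 FPKM), while E60 libraries 2 and 3, with 0 and 1 read, were at 0.125 of E60 library 1 with 41 reads (0.0031 to 0.738). MIR17 had 13, 6 and 17 reads at E50, 13 in E60 library 1 and 0 in all 5 shallow libraries. Its 2.61 reads expected at E40 are under the floor, so that a difference was not detectable at this depth. The same holds for MIR20 (12 reads at E50 in all, 0.87 expected at E40) and MIR19B-1 (5 reads, 0.362 expected).

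**Figure D2:**
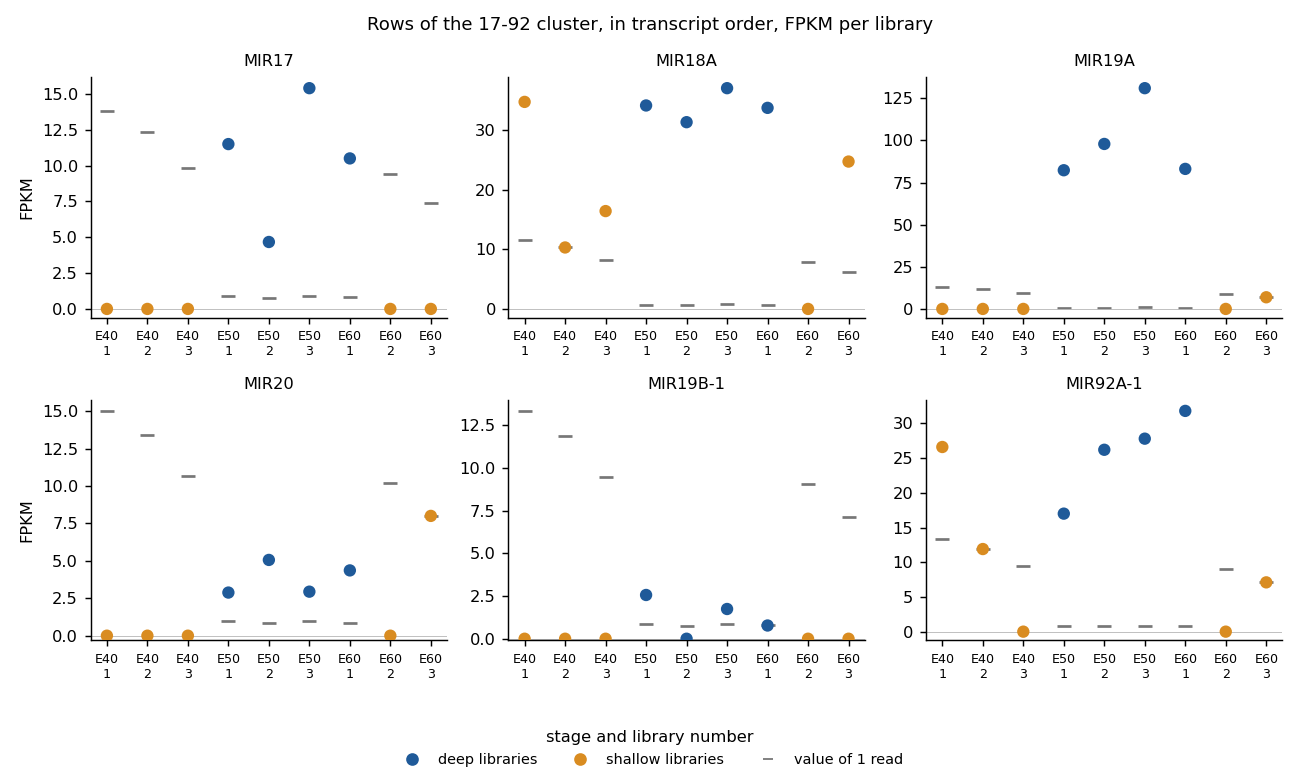
FPKM of the 6 hairpins of the 17-92 cluster in each of the 9 libraries, by stage and library number, in their order along the transcript. Points are libraries, blue for deep and orange for shallow, and grey dashes mark what 1 read is worth in each library. MIR19A is between 82.3 and 131 FPKM in the deep libraries and at 0 or 1 read in the shallow ones, whereas MIR18A overlaps between the sets.

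Hairpin rows of the same transcript were unequal in level. On the FPKM scale, per length, MIR19A exceeded MIR18A 2.41 to 3.55-fold, MIR92A-1 2.62 to 4.83-fold, MIR17 7.15 to 21-fold and MIR20 19 to 44.7-fold over the 4 deep libraries. The order MIR19A, MIR18A and MIR92A-1 and the lowest place of MIR19B-1 were the same in all 4, and MIR17 and MIR20 exchanged places in E50 library 2. The other copies of this family were close to 0. On the related cluster that runs from MIR106A to MIR363, MIR106A was at 0 in all 9 libraries, MIR18B had 1 read in E50 library 1 and 1 in E60 library 1, MIR92A-2 and MIR363 had 1 read each in E60 library 1, and MIR19B-2 had 1 in E60 library 2. MIR92B had a single read, in E40 library 3. Since copies such as MIR19B-1 and MIR19B-2 carry near-identical hairpins, reads that fit both could be split or dropped between them by the alignment.

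Other clusters of neighbouring hairpins, taken as RefSeq neighbours within 10000 bases, were also read in the deep libraries and varied in the rate of the shallow libraries, which was lower for some and higher for others. The cluster of MIR99A and MIRLET7C, microRNAs known for differentiation, had 87, 117 and 132 reads at E50 and 165 in E60 library 1, against 1, 1 and 1 at E40 and 0 and 1 in E60 libraries 2 and 3. These groups did not overlap, with pooled ratios of 0.123 (0.0253 to 0.363) for E40 over E50 and 0.0311 (0.000783 to 0.176) for E60 libraries 2 and 3 over library 1. The cluster was also higher in E60 library 1 than at E50, at a ratio of 1.39 (1.15 to 1.68). Its paralog with MIR100 and MIRLET7A-1 had 32, 43 and 34 reads at E50, 24 in E60 library 1, 0 in all E40 libraries and 1 and 0 in E60 libraries 2 and 3.

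The cluster of MIR23B, MIR27B and MIR24-2, which lies within C10H9orf3, had 140, 107 and 138 reads at E50 and 141 in E60 library 1, and 5, 3, 4, 2 and 6 in the shallow libraries. Its rate at E40 was 0.43 of E50 (0.22 to 0.76). MIR27B, known to act in mesenchyme, was the highest of the 3 in each deep library, 1.5 to 3.05-fold over MIR23B and 1.08 to 2.61-fold over MIR24-2 on the FPKM scale. The paralogous cluster of MIR23A, MIR27A and MIR24-1 was far less abundant, with 20 reads over the E50 libraries against 385. Its 6 reads at E40 were more than the 1.45 expected (ratio 4.14, 1.36 to 10.7), but within E60 the interval included 1 (ratio 3.21, 0.826 to 11.1). The cluster of MIR181A-2 and MIR181B-2 was higher per fragment in the shallow libraries of both stages, with 5, 3 and 4 reads at E40, 8, 10 and 4 at E50, and 3, 8 and 1 at E60. Its ratio was 7.52 (3.39 to 15.9) for E40 over E50 and 15.4 (3.85 to 88.5) for E60 libraries 2 and 3 over library 1, where 8 of the 9 reads came from library 2.

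MIR214 and MIR199A-1 lie within the dynamin gene DNM3, opposite to its strand in mammals, and their microRNAs mark mesenchyme in many organs. MIR214 had the most reads at E50 and in E60 library 1, with 58.1, 34.6 and 41.2 FPKM at E40 (6, 4 and 6 reads), 112, 122 and 130 at E50 (180, 224 and 205 reads), and 85, 26.3 and 36.1 at E60 (151, 4 and 7 reads). Per length it was level with MIR19A in E50 library 3 and below MIR186 in E60 library 1 (92.2 FPKM). The deep libraries lay above all shallow ones. Its neighbour MIR199A-1 did not follow this split, with 28, 125 and 39.7 FPKM at E40, 56.5, 29.2 and 43.9 at E50, and 45.7, 47.6 and 29.9 at E60. MIR199A-1 overlapped between all stages and sets, and MIR214 exceeded it 1.86 to 4.18-fold in the deep libraries. Both rows were above 0 in every library, and MIR199A-1 carries the same mature microRNAs as MIR199A-2, while MIR199B shares the 3′ arm.

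MIR15B and MIR16-1 lie in SMC4, a condensin subunit of dividing cells. MIR15B had 35, 62 and 35 reads at E50 and 25 in E60 library 1, and 1, 0, 0, 0 and 0 in the shallow libraries, whereas MIR16-1 never exceeded 2 reads. MIR15B was also lower in E60 library 1 than at E50, at a ratio of 0.537 (0.335 to 0.827). The pair of MIR374B and MIR421 did not differ between E40 and E50 beyond counting error, with 11 reads at E40 against 11.2 expected (ratio 0.979, 0.479 to 1.8), and within E60 it was at 0.495 (0.207 to 1.02). MIR421 ranged from 24.5 to 41.5 FPKM in deep libraries and had 0, 24.4 and 67.8 at E40 and 0 and 36.4 in E60 libraries 2 and 3. The pair of MIR191 and MIR425 within DALRD3, with 61 reads at E50 and 7 at E40, did not differ beyond counting error either (ratio 1.58, 0.611 to 3.46, and 0.467, 0.0532 to 1.9, within E60).

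**Figure D3:**
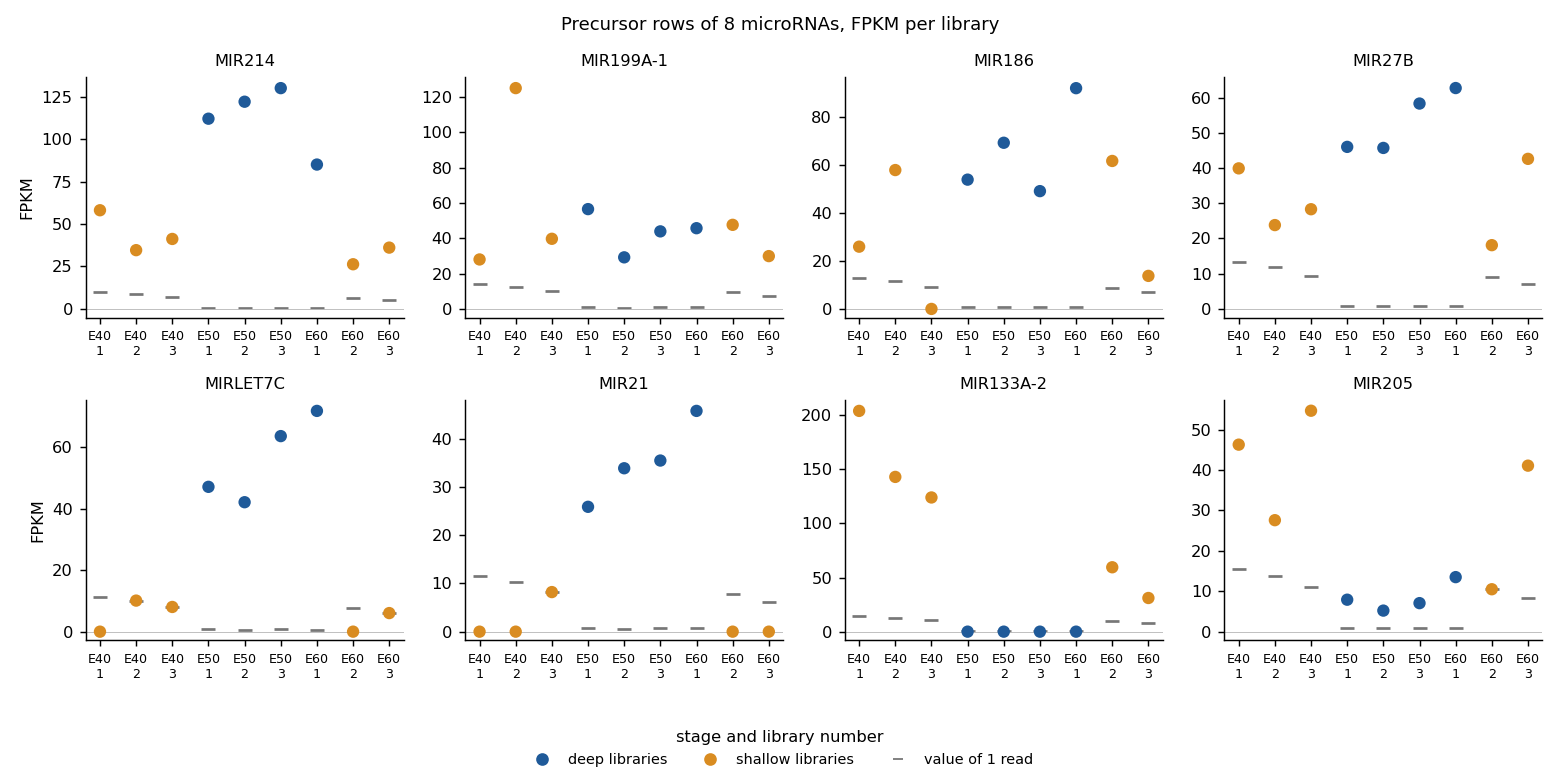
FPKM of 8 precursor rows in each library, by stage and library number, with deep libraries in blue, shallow ones in orange and grey dashes for the value of 1 read. MIR214, MIRLET7C and MIR21 are higher in every deep library, MIR199A-1 and MIR186 overlap between the sets, and MIR133A-2 is at 0 in every deep library.

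The remaining abundant rows had the following levels. MIR186, within ZRANB2, had 26, 58 and 0 FPKM at E40, 54, 69.4 and 49.2 at E50, and 92.2, 61.8 and 13.8 at E60. The stages overlapped, although the pooled E40 rate was 0.443 of E50 (0.176 to 0.928). MIR374A had 0, 47.5 and 9.44 FPKM at E40, 40.9, 56.9 and 34.8 at E50, and 44.9, 0 and 7.1 at E60. MIR125B-1, a regulator of progenitor cells, had 26.6, 47.5 and 18.9 FPKM at E40, 39.2, 24 and 48.7 at E50, and 30.2, 18.1 and 14.2 at E60, with overlap between E40 and E50 and a pooled ratio of 0.824 (0.348 to 1.67). MIR27B had 39.9, 23.8 and 28.3 FPKM at E40, 46, 45.7 and 58.3 at E50, and 62.7, 18.1 and 42.6 at E60. E40 lay below E50 in each library, within counting error (ratio 0.606, 0.258 to 1.22).

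From the cap to the early bell stage, 31 precursor rows were called higher and 6 lower at E50 than at E40 among the 94 tested. Calls were made with limma on log2(FPKM + 0.1) over all rows with at least 1 FPKM in at least 2 libraries, where the Benjamini-Hochberg adjusted p was under 0.05 and the levels differed by 1 or more on the log2 scale, and 91 precursor rows were not tested. Of all 19618 rows tested, 38.6% were called, 16.8% higher and 21.8% lower. The share of precursor rows called in either direction (37 of 94) was thus close to the background. By direction it was not, with 31 of 94 higher, above the background share, and 6 of 94 lower, below it. The median log2 fold change was 3.14 over the precursor rows and 0.55 over all rows. It was 1.22 over the precursor rows with log2(FPKM + 1), 5.06 with log2(FPKM + 0.01) and, on the recovered reads with limma-voom, -1.08 (0.33 over all rows), so that its direction turned with the processing. Of the 31 rows called higher, 30 had 0 reads in all E40 libraries, and for 26 of these at most 2.75 reads were expected at E40. For those 26 the call rests on values that the E40 depth could not have shown, and a fitted fold change of a row at 0 depends on the pseudocount.

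The rows called higher with more than 3 reads expected at E40 were MIR19A, MIR7, MIR100, MIRLET7A-1 and MIR214. MIR19A had a log2 fold change of 10 (SE 1.9, adjusted p = 0.0124 by limma). MIR7, whose hairpin lies in HNRNPK and whose microRNA is known from neural and endocrine cells, had 30, 53 and 54 reads at E50, 36 in E60 library 1 and 0 in the 5 shallow libraries. With E40 set at a floor of 3 pooled reads, MIR7 was 3.31-fold lower there, without the counting error of E50. Its counting interval for E40 over E50 was 0 to 0.376 (log2 fold change 8.06, SE 1.76, adjusted p = 0.0131 by limma). HNRNPK also rose, from 93.1 ± 22.8 to 330 ± 54.1 FPKM (SD, n = 3). MIR100 had 20, 23 and 17 reads at E50 against 0 at E40, which is 1.45-fold lower at E40 by the same floor. Its interval was 0 to 0.875 (log2 fold change 7.36, SE 1.51, adjusted p = 0.0127 by limma). MIRLET7A-1, of the differentiation-linked let-7 family, had 12, 20 and 17 reads against 0 (log2 fold change 7.05, SE 1.54, adjusted p = 0.0131), but its counting interval for E40 over E50, 0 to 1.08, included 1. Of the rows called higher, MIR214 alone had reads at E40, and its log2 fold change was 1.47 (SE 0.45, adjusted p = 0.0321). Its call was lost when any 1 of the E40 or E50 libraries was left out (adjusted p = 0.0592 to 0.104), with limma-voom (adjusted p = 0.0645) and under median-ratio scaling (log2 fold change 0.81). MIR17, next in the size of its fold change (6.57, SE 1.61, adjusted p = 0.0168), had fewer than 3 reads expected at E40.

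These calls moved with the processing. On the recovered reads limma-voom called 1 row higher, MIR19A, and 17 lower of 94, beside 10.4% and 24.4% of all rows, and 21 of the 31 rows called higher on FPKM had a negative change there. Leaving out 1 library removed calls over the whole table. Without E50 library 2 or E50 library 3, 0 precursor rows were called, beside 0.297% of all rows in either case. An unadjusted p under 0.05 by limma was found for 40 of 91 and 37 of 90 precursor rows. Over all rows it was found for 7466 of 19553 and 7545 of 19547. Without E40 library 1 there were 2 precursor calls (1.09% of all rows), without E50 library 1 there were 16 (17.6%) and without E40 library 2 there were 19 (17.1%). A term for the library set left 1 precursor row, beside 0.255% of all rows.

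The 6 rows lower at E50 were MIR133A-2, MIR451, MIR4334, MIR199A-2, MIR205 and MIR181B-2. Limma-voom called all 6 lower as well, among 17 rows called lower, 1 of which had 0 reads at E40. The constant it adds to each count was 15.6-fold larger per fragment in E40 library 1 than in E50 library 1. This leans sparse rows toward lower at E50, so the match gives no independent support. MIR133A-2, a microRNA of skeletal and heart muscle, had 204, 143 and 124 FPKM at E40 (14, 11 and 12 reads), 0 in the 4 deep libraries, and 59.5 and 31.1 FPKM in E60 libraries 2 and 3 (6 and 4 reads). It had the most reads of all precursors in each E40 library, and the sets did not overlap. By the lower limits of the exact intervals, E40 was at least 132-fold higher than E50 and, within E60, libraries 2 and 3 at least 11.5-fold higher than library 1. Against a floor of 3 reads in the group at 0 these folds were 170 and 17.1. The limma log2 fold change for E50 against E40 was -10.59 (SE 1.96, adjusted p = 0.0124). It lies within MIB1, which went the other way, with 22.4 ± 4.68 FPKM at E40 and 96.5 ± 11.2 at E50 (SD, n = 3).

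Muscle genes moved with MIR133A-2 between E40 and E50, but the summed muscle markers did not within E60. All 3 muscle markers tested (MYLPF, TNNC2 and ACTA1, contractile proteins) were called lower at E50, and CKM was listed at 0 throughout. The 4 markers listed summed to 192 to 280 FPKM at E40, 22 to 26.2 at E50, 14.5 in E60 library 1 and 6.86 and 12.7 in E60 libraries 2 and 3, which is lower than at E50 where MIR133A-2 was at 0. Other muscle microRNAs were near 0, since MIR1, MIR206 and MIR499 had no read, MIR133A-1 had 1 and MIR133B 2 over all libraries. MIR208B, in the myosin gene MYH7, had 2, 1 and 0 reads at E40, 1 at E50 in all and 1 in E60 library 2. MYH7 had 10 ± 2.79 FPKM at E40 and 0.637 ± 0.0291 at E50 (SD, n = 3). At E60 MYH7 had 0.537, 1.57 and 1.8 FPKM in libraries 1, 2 and 3, so it was higher where MIR133A-2 had reads. The part of muscle tissue in the dissected germs was not tested.

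MIR451, processed without DICER1 in red blood cells, had 49.2, 14.6 and 34.9 FPKM at E40 (3, 1 and 3 reads), 0 in the deep libraries, and 22.3 and 0 in E60 libraries 2 and 3. By the lower limit of the exact interval it was at least 19.9-fold higher at E40 than at E50, and 32.2-fold against the floor of 3 reads (log2 fold change -8.2, SE 1.81, adjusted p = 0.0134 by limma). None of the 3 erythroid markers tested was called, and their mean levels differed in direction. The haemoglobin genes HBB and HBM had 284 ± 86 and 4.22 ± 1.98 FPKM at E40 and 863 ± 148 and 1.93 ± 0.973 at E50 (SD, n = 3), and ALAS2, of haem synthesis, had 4.34 ± 0.596 and 6.6 ± 1.1. MIR4334, within DNPEP, had 1, 2 and 1 reads at E40, 1 and 1 in E60 libraries 2 and 3 and 0 in the deep libraries (log2 fold change -7.39, SE 1.53, adjusted p = 0.0128). From its 4 reads at E40, the lower limit of the exact interval put it at least 9.11-fold above E50 (18.4-fold against a floor of 3 reads at E50, without the counting error of the 4).

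MIR205 is a microRNA of epithelia, and the enamel organ of the tooth germ is epithelial. It had 46.3, 27.6 and 54.7 FPKM at E40 (3, 2 and 5 reads), 7.91, 5.21 and 7.06 at E50 (8, 6 and 7 reads), and 13.5, 10.5 and 41.1 at E60 (15, 1 and 5 reads). E40 lay above E50 in every library, with 42.9 ± 13.9 against 6.72 ± 1.38 FPKM (SD, n = 3), a pooled ratio of 6.57 (2.76 to 14.6) and a log2 fold change of -2.62 (SE 0.53, adjusted p = 0.0127 by limma). Within E60, libraries 2 and 3 were not separable from library 1 (ratio 2.05, 0.653 to 5.6). Within the deep libraries E60 library 1 was above each E50 library, but the counting interval included 1 (ratio 2.02, 0.971 to 4.12). MIR199A-2, with 66.6, 23.8 and 18.9 FPKM at E40 and 2.56, 3 and 6.09 at E50, was also high in E60 libraries 2 and 3 (27.1 and 14.2 against 2.32 in library 1). Its log2 fold change was -3.07 (SE 0.87, adjusted p = 0.0253 by limma). DNM2, which contains the hairpin by position, was not called (18.2 ± 2.05 and 19.4 ± 2.07 FPKM, SD, n = 3). MIR181B-2 had 12.4, 11.1 and 17.6 FPKM at E40 and 3.96, 4.18 and 1.62 at E50.

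No precursor row was called between E60 and E50, or between E60 and E40, over the 9 libraries with limma. Of all rows, 0.0714% were called between E60 and E50 and 1.8% between E60 and E40. At an unadjusted p under 0.05 limma had 25 of 94 precursor rows for E60 against E50 and 12 for E60 against E40, beside 30.2% and 17.9% of all rows, and limma-voom called 0 in both. The E60 libraries were 1 deep and 2 shallow. Without E60 library 1, 48 of 89 rows were called between E60 and E50, 40 of them lower, against 59.1% of all rows.

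The library sets could also be compared within E60, where the stage is constant but the deep set is a single library. Depth and differences between the germs cannot be told apart there, since the tooth germ markers summed to 19100 FPKM in library 1 and 3740 and 8940 in libraries 2 and 3. In E60 libraries 2 and 3 against library 1, the exact 95% interval of the pooled ratio lay below 1 for 14 and above 1 for 7 of 114 precursor rows with reads, beside 35.9% and 18.3% of all rows. For E40 against E50 it lay below 1 for 10 and above 1 for 14 of 132, beside 31.3% and 23.3% of all rows. These comparisons share no library. Of the rows below 1, 9 were below in both (MIR15B, MIR186, MIR19A, MIR21, MIR214, MIR24-2, MIR7, MIR99A and MIRLET7C), which is 90% of the 10 and 64.3% of the 14. Of the rows above 1, 4 were above in both (MIR133A-2, MIR135-1, MIR181A-2 and MIR199A-2), which is 28.6% of the 14 and 57.1% of the 7. None lay clear of 1 in opposite directions. The same overlap over all rows was not computed, so these shares have no background beside them. Only rows with more than 3 expected reads could lie below 1, and each comparison had 21 such precursor rows.

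MIR21 shows the pattern shared by both comparisons. This growth-linked microRNA had 35, 52 and 47 reads at E50 and 68 in E60 library 1, but 0, 0 and 1 at E40 and 0 and 0 in E60 libraries 2 and 3. Within the same stage, E60 libraries 2 and 3, set at a floor of 3 pooled reads, were 4.41-fold lower than library 1. This fold leaves out the counting error of library 1 (exact interval of the ratio 0 to 0.286). For E40 over E50 the ratio was 0.103 (0.00259 to 0.583). MIR181A-2 shows the opposite, with 53.2, 23.8 and 18.9 FPKM at E40 (4, 2 and 2 reads) and 2.56, 3 and 1.74 at E50 (3, 4 and 2 reads). At E60 it had 0, 7 and 0 reads in libraries 1, 2 and 3, so that its ratio within E60 rests on library 2 alone.

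**Figure D4:**
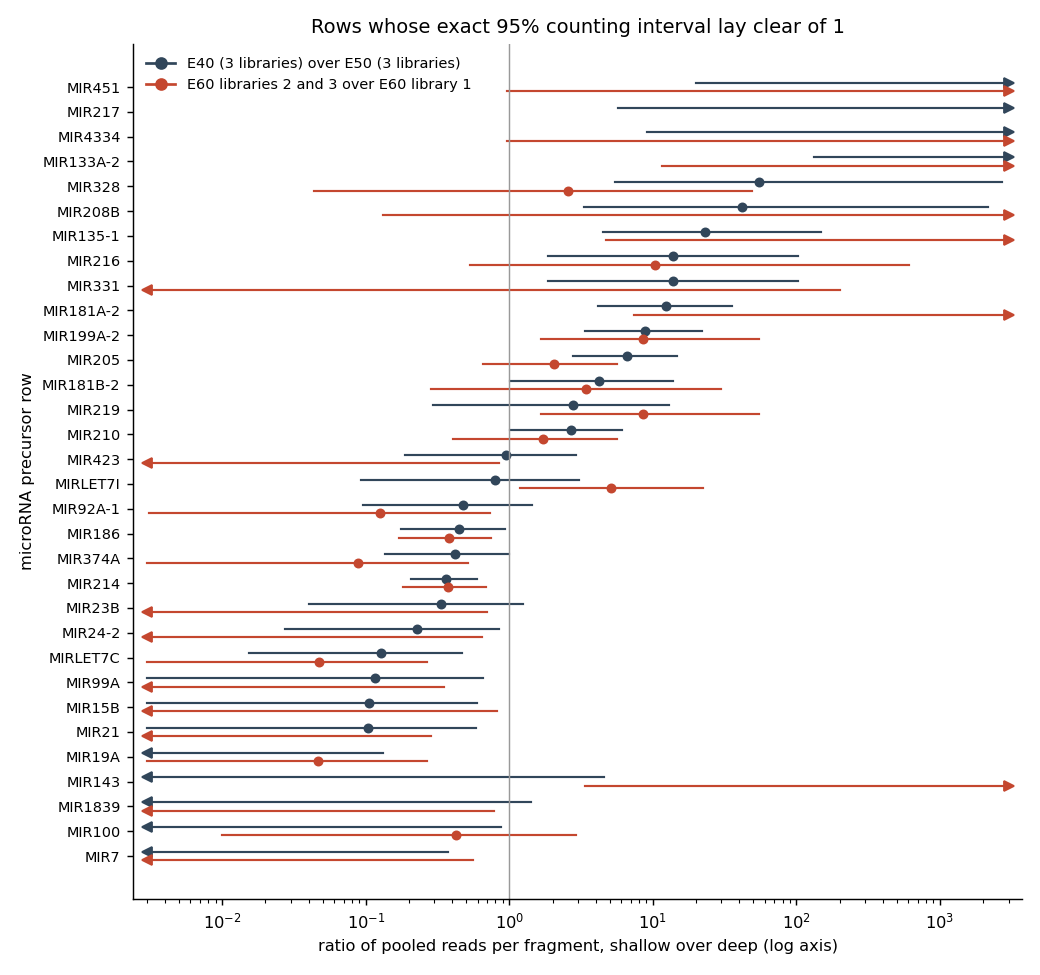
Ratio of pooled reads per mapped fragment with its exact 95% counting interval, on a log axis, for the precursor rows whose interval lay clear of 1 in either comparison. Dark symbols are E40 over E50 and red symbols E60 libraries 2 and 3 over E60 library 1. Arrowheads stand for a group with 0 reads, and a row without reads in both groups has no symbol. MIR214 and MIR186 have nearly the same ratio in both (0.362 and 0.374, 0.443 and 0.379).

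Among libraries of like depth, E60 could be set against E40 in the shallow libraries and against E50 in the deep ones. Within the shallow libraries, 1 of 48 rows tested with limma was called, beside 1.3% of all rows. This was MIR143, a smooth muscle and mesenchyme microRNA, with 0 reads at E40 and 2 and 2 reads (18.1 and 14.2 FPKM) in E60 libraries 2 and 3 (log2 fold change 7.33, SE 0.91, adjusted p = 0.0174). It also had 0 reads in E60 library 1, and its neighbour MIR145 had 0 in the 5 shallow libraries. The call rests on 4 reads, and the exact interval of E60 libraries 2 and 3 over E40 starts at 0.696. With limma-voom 0 of 48 were called, beside 4.63% of all rows, with 1 at an unadjusted p under 0.05, and no row was called higher without E40 library 3, E60 library 2 or E60 library 3. By counting intervals, 1 of 68 rows was below 1 and 0 above, beside 25.4% and 4.16% of all rows. The row below was MIR133A-2, at 0.285 of its E40 rate (0.126 to 0.585) in E60 libraries 2 and 3.

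Within the deep libraries, E60 library 1 stood alone against 3 E50 libraries and was taken to vary like them. The calls therefore compare this library with the spread of E50 and not the stages, and single rows are given with their counting intervals in place of p-values. Of 79 rows tested with limma 11 were called higher and 10 lower, beside 5.74% of all rows, 2.86% higher and 2.88% lower. Most of these were low, with 5 to 72 reads over the 4 libraries, and 6 of the 21 had a counting interval clear of 1. The rows called higher with the largest changes were MIR103-2, MIR181B-1, MIR148B, MIR1343 and MIR30C-1, of which MIR181B-1 had most reads, with 2, 10 and 4 at E50 and 23 in E60 library 1 (1.7, 7.49, 3.48 and 17.8 FPKM). E60 library 1 lay above all E50 libraries, with a ratio of 4.07 (2.06 to 8.25). MIR148B had 1, 2 and 2 reads at E50 and 8 in E60 library 1, a ratio of 4.53 (1.31 to 17.6). For MIR103-2, MIR1343 and MIR30C-1, with 3, 6 and 4 reads in E60 library 1, the counting interval included 1.

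The rows called lower with the largest changes were MIR143, MIR127, MIR181A-2, MIR1306 and MIR107, and the first 4 were at 0 in E60 library 1. MIR143 had 5, 4 and 4 reads at E50, with a ratio of 0 (0 to 0.93). For MIR127, MIR181A-2, MIR1306 and MIR107 the counting interval included 1. MIR127 lies opposite RTL1 in an imprinted region, and RTL1 had 60.2, 60.9 and 47.4 FPKM at E40, at most 0.493 at E50 and 0, 10.5 and 8.56 at E60. MIR127 itself had 3, 0 and 0 reads at E40 and 4, 3 and 3 at E50. Whether strand was used in counting is not given in the sources used here. Limma-voom called 2 of the 79 rows, beside 4.9% of all rows. Without the filter on low values limma called 0 of 130 precursor rows and 0 of all 28083 rows, with 20 precursor rows at an unadjusted p under 0.05.

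By counting intervals, 9 of 130 rows were higher and 5 lower in E60 library 1 than at E50, beside 15.1% and 20.2% of all rows. Of those with over 100 reads at E50, MIRLET7C was at 1.42 (1.12 to 1.8), MIR21 at 1.44 (1.06 to 1.94), MIR186 at 1.59 (1.26 to 1.99), MIR214 at 0.703 (0.584 to 0.841), MIR19A at 0.803 (0.644 to 0.995) and MIR15B at 0.537 (0.335 to 0.827). MIR374B, with 13, 20 and 8 reads at E50 and 31 in E60 library 1, was at 2.14 (1.3 to 3.5). MIR204, within TRPM3, had 1, 0 and 1 reads at E50 and 8 in E60 library 1, a ratio of 11.3 (2.26 to 110), and MIR378-1 had 0 at E50 and 5 in E60 library 1.

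**Figure D5:**
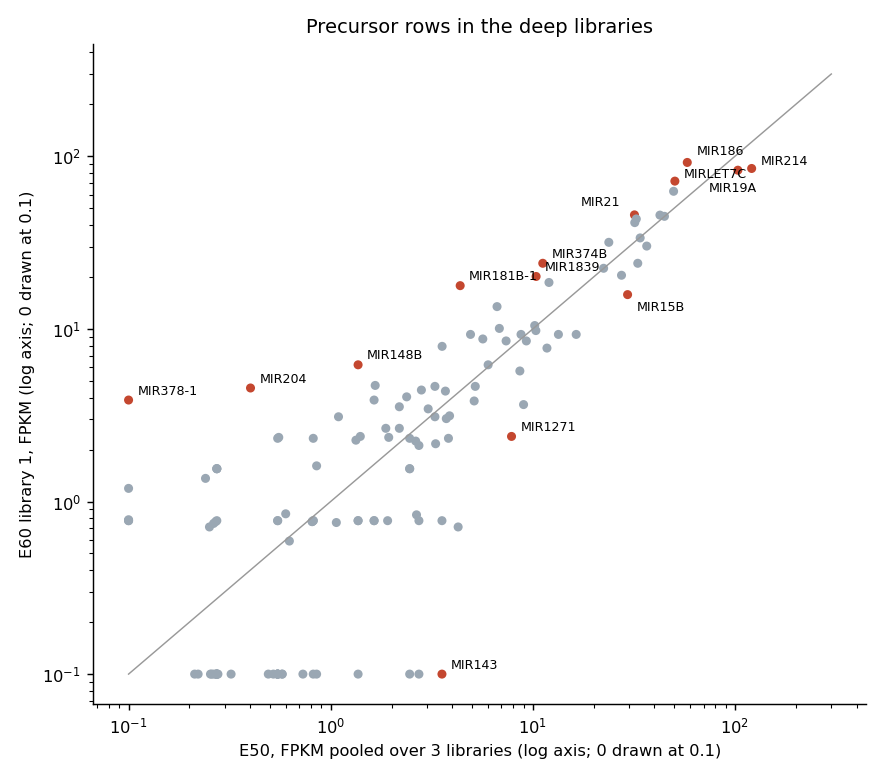
FPKM of 130 precursor rows in E60 library 1 against the pooled E50 libraries, both on log axes with values of 0 drawn at 0.1. The line marks equal levels, and red points with names are the 14 rows whose exact 95% counting interval lay clear of 1. MIR181B-1, MIR148B and MIR204 lie above the line, and MIR15B and MIR1271 below it.

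Precursors grouped by the tissue they are known from were mostly below the reach of these libraries. Of 5 epithelial rows all had reads, but only MIR205 and MIR429 passed 3 reads in at least 2 libraries. MIR429, of the miR-200 family, had 0, 1 and 1 reads at E40, 9, 4 and 6 at E50, and 5, 1 and 0 at E60, with E40 and E50 overlapping on the FPKM scale. Of 14 mesenchymal rows 12 had reads, led by MIR214, MIR27B, MIR199A-1 and MIR21. MIR145 had 3, 3 and 8 reads at E50 and 11 in E60 library 1. The only cartilage row, MIR140, was at 0 throughout, as was MIR486-1 of the erythroid rows. The endothelial MIR126 had 2 reads at E50 and 1 in E60 library 1, and of 4 myeloid rows none exceeded 3 reads in total. Of 7 neural rows 5 had reads, MIR7 with 173 in deep libraries and the others with 8 or fewer.

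Precursors could be set beside the mRNA of the gene that contains them, called the host here and taken by position in RefSeq without regard to strand. SMC4 was called higher at E50, with 17.6, 22.5 and 27 FPKM at E40 and 85.8, 124 and 94.2 at E50, and 69.3, 10.1 and 16.7 at E60. The ratio of E40 to E50 was 0.221 for SMC4 and 0.105 (0.00263 to 0.592) for MIR15B within it. CCPG1 was also called higher, at a ratio of 0.244, while MIR628 within it had 8, 7 and 3 reads at E50 and 0 at E40. C10H9orf3 was not called, at a ratio of 0.7, and MIR27B within it had 0.606 (0.258 to 1.22). RAB3GAP2 was not called (ratio 1.22), where MIR664 had 5, 11 and 9 reads at E50, 13 in E60 library 1 and 0 in the shallow libraries, with an interval of 0 to 2.19. PANK3, PANK1, HUWE1, MAP2K4 and ARL10 were not called either, at ratios of 0.345 to 0.541, and their MIR103-1, MIR107, MIR98, MIR744 and MIR1271 had 12 to 28 reads at E50 and 0 or 1 at E40. For each of these pairs the host ratio lay inside the counting interval of its precursor, although the intervals of the precursors with 0 or 1 read at E40 were wide, reaching 1.94 to 7.77 for all but MIR15B. The ratio of HNRNPK, 0.282, also lay inside the interval of MIR7 (0 to 0.376). In the following pairs the ratio of the containing gene lay outside, and no ratio was computed for the other RefSeq hosts. Whether gene and hairpin lie on the same strand and share a transcript was not tested. MIR133A-2 also lies in a long noncoding RNA gene that has no values here. MIB1 was at 0.232 with MIR133A-2 at 132 or more, DNM2 at 0.939 with MIR199A-2 at 8.87 (3.39 to 22), ERAL1 at 0.568 with MIR451 at 19.9 or more, and DNPEP at 0.608 with MIR4334 at 9.11 or more. MIR152 had 7, 9 and 6 reads at E50, 8 in E60 library 1 and 0 in the shallow libraries.

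Genes listed for the microRNA pathway were called higher at E50 at a share close to the background. Of 26 listed genes of the processing pathway, 23 were tested and 4 were called higher at E50 than at E40 and 0 lower, beside 16.8% and 21.8% of all rows. The 4 were XPO5, the export receptor of precursors, XPO1, XRN1 and the uridylating enzyme ZCCHC6. XPO5 had 12.7 ± 0.755 FPKM at E40 and 34.7 ± 1.21 at E50 (SD, n = 3, adjusted p = 0.0498 by limma). DROSHA had 2.34, 2.92 and 3.98 FPKM at E40, 8.23, 9.89 and 9.76 at E50, and 9.47, 1.91 and 2.74 at E60, with a log2 fold change of 1.59 (SE 0.59, adjusted p = 0.0568). It was higher in every deep library than in every shallow one, and DICER1 was also higher in each deep library, with 8.33 ± 0.758 FPKM at E40 and 18.7 ± 2.53 at E50 (SD, n = 3). DGCR8 was not called (18.3 ± 6.15 and 23.2 ± 0.144 FPKM), and neither was the Argonaute gene EIF2C2 (9.29 ± 1.22 and 9.82 ± 1.23 FPKM). The median log2 fold change of the 23 genes was 1.15 for E50 against E40 and -1.15 for E60 against E50, beside 0.55 and -0.64 over all rows. For E60 against either stage 0 of them were called.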

How the data were processed

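Per the labels and the study's methods, the authors made strand-marking libraries from RNA without rRNA, aligned them with TopHat (Sscrofa10.2 in the submitters' processing notes) and deposited FPKM per gene and library. The counter and its strand setting are not given in the sources used here. From the FPKM steps, the mapped fragments per library and whole reads were recovered for all 28963 rows above 0, and all 185 members matched RefSeq (Sscrofa11.1, 16 by synonym), used for lengths, names, hosts and neighbours only. Rows that reached 1 FPKM in 2 or more libraries entered limma 3.58.1 (R 4.3.3) on log2(FPKM + 0.1), with a mean-variance trend, 1 coefficient per stage and Benjamini-Hochberg adjustment over the whole table. Ratios of pooled reads have exact 95% binomial intervals (scipy 1.17.1). A fold against 0 uses a floor of 3 pooled reads and leaves out the counting error of the other group. The scripts were tested on simulated data in which only rows well read in every library were changed. That test does not cover rows as sparse as the precursors. Python 3.11.15, numpy 2.4.6, pandas 2.3.3 and matplotlib 3.10.9 were used.

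The members, lists and tests were chosen with earlier results of these data known. Named were the rows of the 17-92 cluster and its paralogs, the 10 members of highest median FPKM, up to 5 called members each way per comparison with groups that did not overlap, and members of the tissue and host lists with more than 3 reads in at least 2 libraries. Members outside these rules were named after their values were seen. Hosts are those that contain the hairpin in RefSeq, on either strand. No hairpin sequence is shown, since none was used here. Alternatives were other pseudocounts, filters and scaling, limma-voom on the reads, fits of only the compared stages, a replicate block, a library set term and leaving out each library.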

Additional observations from a re-analysis of the deposited data

How the results depend on the processing

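The count of precursor rows called for E50 against E40 was 37 with limma and stayed within 1.5 times of that under other pseudocounts, no filter, median-ratio scaling (32) and a fit of only the compared stages. Fewer precursor rows passed the stricter filters. The count was 15 of 51 with at least 5 FPKM in at least 3 libraries, beside 5875 of 12682 rows in all. It was 18 of 46 with more than 3 reads in at least 3 libraries, beside 6997 of 19459 rows in all. It was 18 with limma-voom on the reads and 1 with the library set as a term, and the cause was not tested. Median-ratio scaling moved the median log2 fold change of all rows from 0.55 to -0.14. Leaving out 1 library gave 0 to 43 for E50 against E40, 0 to 48 for E60 against E50 and 0 to 5 for E60 against E40. Over all rows the same fits called 58 to 10650, 4 to 11529 and 128 to 1181. E60 against E50 went from 0 to 1 without the filter and to 1 with the library set term, and E60 against E40 from 0 to 2 with that term. Within the shallow libraries the count of 1 became 2 with log2(FPKM + 1), 0 with log2(FPKM + 0.01) and 0 with limma-voom, and 0 to 4 without 1 library. Within the deep libraries the count of 21 became 0 without the filter, 4 and 5 with the stricter filters and 2 with limma-voom, and 16 to 22 without 1 E50 library. The shallow over deep rate of 0.642 ranged from 0.602 to 0.714 without 1 library. With the library set term the log2 fold change of MIR17 turned to -0.15. Of 292 refits of 22 named values, 212 kept their call, 79 lost it with the same direction and 1 reversed. The replicate block gave 33 calls for E50 against E40 and 0 for the other stage comparisons, and the numbers do not pair the libraries, since same-numbered libraries of different stages correlated at -0.52 to 0.11.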
